A study of Homo sapiens with 6 samples.

Results

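Circular RNAs (circRNAs) made from the ZNF zinc finger genes were described in BEAS-2B cells. The members were all circRNAs with a single host gene whose symbol is ZNF followed by digits and an optional final letter. A circRNA thus entered by name and not by its own value, but the family was chosen with earlier results of these data known. The rule found 139 circRNAs from 80 host genes, of 9857 circRNAs from 3742 host genes in all. A further 13 circRNAs with a ZNF gene among 2 host genes were left out. BEAS-2B cells are an immortalised bronchial epithelial line of human origin. Cells held for 20 weeks in 2.0 µM cadmium (3 libraries) were compared with cells held for the same time at 0.0 µM (3 libraries), all of this 1 line and with no genetic change between the groups given in the labels. Linear RNA had been digested with RNase R, and a circRNA was counted by the reads that cross its back-splice junction, the point at which the splicing machinery has closed the exons into a ring. Whether replicates were grown as separate cultures is not in the labels, so a p-value measures the spread between libraries alone, and that spread may be technical.

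ZNF genes encode proteins with C2H2 zinc fingers, short loops held by a zinc ion between a pair of cysteines and a pair of histidines, which line up in arrays that read DNA. Many of them also carry a KRAB domain near the start of the protein, which recruits the corepressor TRIM28 and through it the histone methyltransferase SETDB1 and HP1 proteins, a pathway known for silencing transposable elements. In KRAB zinc finger genes the KRAB domain and the finger array lie on different exons, the array as a rule on 1 long last exon, and many of these genes stand in clusters on chromosome 19.

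Libraries held 133185, 135686 and 160248 junction reads in cadmium replicates 1 to 3 and 225769, 137919 and 165352 in control replicates 1 to 3, and a ZNF circRNA had a median of 7 reads per library. No value of 1 stands in the deposited table, and every listed circRNA has reads in each of the 3 libraries of one group or of both. Control replicates 1 and 3 stand apart from the other 4 libraries in the share of junction reads at circRNA loci. Of the markers of other cell types, circRNAs were listed for 0 of 4 leukocyte, 0 of 3 endothelial and 0 of 3 neural genes. They were listed for 0 of 11 epithelial genes and for 3 of 10 mesenchymal genes (ZEB1, ZEB2 and BNC2), whose summed level was 348 to 453 CPM in cadmium libraries and 559 to 638 CPM in control libraries. A gene without a circRNA may still be expressed as linear RNA, so these counts do not check the labelled cell type, and the part of the mesenchymal markers in the ZNF results was not tested.

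ZNF circles mostly began at exons 2 to 4 and, like nearly all other circles, left out the last exon. Of 139 ZNF circRNAs, 134 were exonic and 5 intronic by the authors' classes, and 109 had both ends on exon bounds of 1 GENCODE 29 transcript. Of these 109, 58 (53.2%) began at exon 2, 15 at exon 3 and 15 at exon 4, while 2336 of 8594 such circRNAs of other hosts (27.2%) began at exon 2. None of the 109 held the last exon of its transcript, and 7 of the 8594 others did. On a coding transcript, 36 of 103 ZNF circRNAs (35.0%) held the start codon, against 1100 of 8392 of the others (13.1%). The median spliced length was 342.5 bases for ZNF exonic circRNAs and 381 bases for the others. On chromosome 19 lay 41 ZNF circRNAs (29.5%) from 30 of the 80 hosts, against 270 other circRNAs (2.87%). These are counts over circRNAs that share genes, and no test was made of them. ZNF and other hosts were not matched for the number of exons per gene, and its part in these differences was not tested.

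A KRAB pattern was found in the coding sequence of 45 hosts, which gave 67 circRNAs, and was not found in 35 hosts, which gave 72. In 44 of the 45 KRAB hosts a C2H2 pattern was found, and in all 44 every finger lay in the last coding exon. Of the 67 circRNAs of KRAB hosts, 32 had a spliced length equal to that of the matched transcript's exons, and 0 of these 32 held a C2H2 pattern. The rest of the 67 were not assessed, among them the abundant hsa_circ_0002922, novel_circ_0018209 and hsa_circ_0005667 of ZNF124. The proteins of KRAB hosts held a median of 12. Since no ZNF circRNA on exon bounds held a last exon, this 0 largely restates where the circles end. Of 55 circRNAs with an equal spliced length from the other hosts, 28 from 15 hosts held at least 1 finger. The proteins of these other hosts held a median of 4.5. The largest number was in hsa_circ_0047958 of ZNF407, with 17 of the 18 fingers of its transcript. Every finger of the transcript was held by hsa_circ_0082096 of ZNF800 (6 of 6) and hsa_circ_0008842 of ZNF367 (1 of 1). From ZNF236, a gene first described as glucose-regulated in kidney cells, hsa_circ_0000857 (exons 2 to 9 of 31) held 9 of 30 fingers. From ZNF652, a transcriptional repressor gene, hsa_circ_0000782 held 5 of 7.

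**Figure D1:**
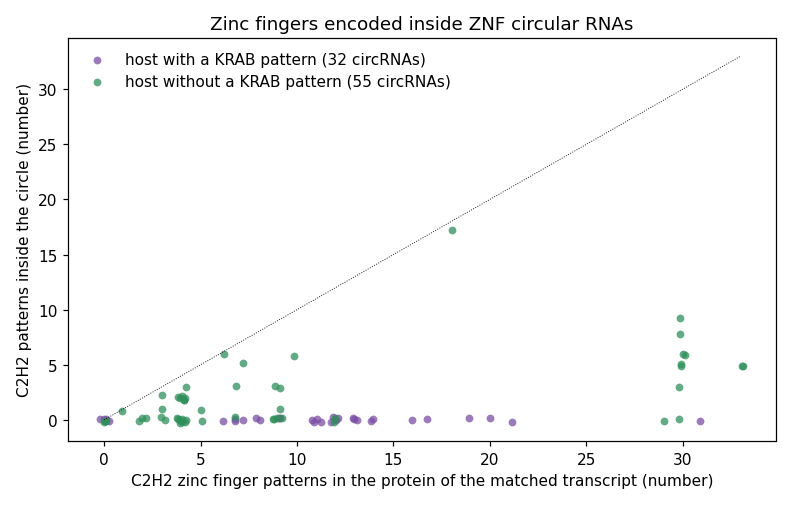
Each point is 1 ZNF circRNA of known spliced sequence, with the number of C2H2 zinc finger patterns in the protein of its matched transcript on the x axis and the number inside the circle on the y axis (points are shifted slightly so that they do not hide each other, and the dotted line marks equal numbers). All 32 circRNAs of hosts with a KRAB pattern lie at 0 on the y axis, and 28 of 55 from hosts without one lie above 0.

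The KRAB domain, in contrast, was often inside the circle. Of the circRNAs of known spliced sequence, 25 held the exon that encodes the KRAB pattern, and 23 of these exons, from 22 hosts, were 127 bases long. In 6 circRNAs this exon of 127 bases was joined to a single exon of 96 bases, which made circles of 223 bases, and 20 circRNAs of any host had that length. Among 21 wholly coding KRAB exons of 127 bases, pairs were identical at a median of 67.7% of positions (52.8% to 92.1% over 210 pairs). The 4 such exons from the most abundant hosts are printed 5′ to 3′ from GENCODE 29 (GRCh38) to show how much of this exon is shared, with capitals at positions where the base is that of at least 90% of the 21 exons (52 positions).
ZNF124 exon 2 (chr1:247159687-247159813, minus strand): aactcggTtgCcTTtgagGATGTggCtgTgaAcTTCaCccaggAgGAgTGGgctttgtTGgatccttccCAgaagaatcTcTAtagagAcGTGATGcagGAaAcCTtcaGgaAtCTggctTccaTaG
ZNF81 exon 4 (chrX:47887999-47888125, plus strand): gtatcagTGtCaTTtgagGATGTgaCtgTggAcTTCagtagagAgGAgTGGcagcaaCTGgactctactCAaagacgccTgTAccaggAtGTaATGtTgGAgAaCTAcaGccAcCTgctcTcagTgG
ZNF720 exon 2 (chr16:31722626-31722752, plus strand): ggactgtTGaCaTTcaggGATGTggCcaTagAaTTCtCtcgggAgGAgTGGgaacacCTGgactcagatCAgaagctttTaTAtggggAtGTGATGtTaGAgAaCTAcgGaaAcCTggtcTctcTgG
ZNF680 exon 2 (chr7:64544306-64544432, minus strand): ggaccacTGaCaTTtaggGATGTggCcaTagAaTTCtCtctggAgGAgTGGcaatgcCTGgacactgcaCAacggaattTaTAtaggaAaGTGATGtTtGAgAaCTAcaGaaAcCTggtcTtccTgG
ZNF720 and ZNF680 had 81.1% of these bases in common, and ZNF124 and ZNF81 59.1%.

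Junction sequences separate circles of 1 gene and show which related genes could share reads. The following 30 bases, written 5′ to 3′, cross the back-splice of the most abundant circRNAs with both ends on exon bounds and of those from ZNF714, ZNF577 and ZNF362 that lead the comparison of the groups. The lower-case letters are the last 15 bases of the downstream exon and the capitals the first 15 bases of the upstream exon to which they are joined.
ZNF292 hsa_circ_0004058: tggataaggataaagACACTCCTAGAATAT
ZNF236 hsa_circ_0004979: catgaaaaggaagagATGGAGTTTTAACAT
ZNF81 hsa_circ_0006364: atcagagctgttcagAGTTCTTGGAGTCTC
ZNF148 hsa_circ_0001333: gcacttaatgtccctGATAGAGGGAGGAAT
ZNF720 hsa_circ_0007059: tagccatccagccagGGACTGTTGACATTC
ZNF133 hsa_circ_0006099: cggcaacctgtccagATCTACCTTCTGAGA
ZNF680 hsa_circ_0002566: tagccaaacccccagGGACCACTGACATTT
ZNF714 novel_circ_0014906: tggatgaatccccagGAGACGTTGACATTT
ZNF577 hsa_circ_0008822: cacacctcattgcagTTGAGCATTTTTGTC
ZNF362 hsa_circ_0009027: cgggcctacacctcgAATCCACACAGGCGA
Over 40 bases on each side, 108 ZNF junctions were compared with each other. The highest identities between hosts were 91.25% for ZNF91 novel_circ_0014936 and ZNF675, and 90% for ZNF680 hsa_circ_0002566 and ZNF92. The ZNF714 junction was 87.5% identical to that of ZNF91 novel_circ_0014936, and the ZNF720 junction 83.75% identical to that of ZNF736 hsa_circ_0008543. In all, 9 junctions were at least 80% identical to that of another host. Since it is not known here how reads that match several genes were counted, the split of reads among these near copies is uncertain.

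A few hosts carried most of the ZNF circular RNA. Levels are given as CPM, junction reads scaled to one library total by TMM, with no length term, so they compare 1 circRNA or host between libraries, and between hosts they rank junction reads. The 2 hosts with the most reads held 33.6% of the summed ZNF level, the 10 with the most 67.8%, and 56 hosts had only 1 circRNA. ZNF292, which encodes a large zinc finger transcription factor and is known for a circRNA described in hypoxic endothelial cells, stood first, with 2988, 2412 and 3771 CPM in cadmium replicates 1 to 3, against 3525, 3076 and 3568 CPM in control replicates 1 to 3. The second cadmium library was the lowest and the third the highest of all 6, so the groups overlapped (edgeR log2 fold change -0.15 with SE 0.14, adjusted p = 0.687). Of its 4 circRNAs, hsa_circ_0004058 (chr6:87215903-87218731, exons 2 to 4 of 8) held 88.1%, 87.7% and 91.7% of the reads with cadmium and 89.5%, 90.3% and 90.4% in controls. It ranked 14 among all circRNAs, and 3 ZNF circRNAs were among the 100 most abundant.

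ZNF124, a KRAB zinc finger gene on chromosome 1, followed with 2980.4, 3042 and 2833 CPM in cadmium replicates 1 to 3, against 3251, 3606 and 2936 CPM in control replicates 1 to 3. The groups overlapped here too (edgeR log2 fold change -0.14 with SE 0.11, adjusted p = 0.626). All 6 of its circRNAs share the same upstream end at base 247159813, the first base of its KRAB exon, and differ in the downstream end. The intronic-class hsa_circ_0002922 (chr1:247155566-247159813) had 1154, 1129.8 and 1206 CPM with cadmium, against 1232, 1538 and 1384 CPM in controls. Each cadmium library lay below each control, but the difference did not pass the test (edgeR log2 fold change -0.25 with SE 0.14, adjusted p = 0.683). For novel_circ_0018209 (chr1:247156406-247159813) the groups overlapped, at 1077 ± 193 CPM with cadmium and 1020.1 ± 248 CPM in controls (SD, n = 3 each), and for hsa_circ_0005667 (chr1:247157000-247159813) as well, at 639.6 ± 78.1 CPM with cadmium and 703 ± 34.8 CPM in controls (SD, n = 3 each). The rare novel_circ_0018213 (chr1:247157084-247159813) had 0, 2 and 3 reads with cadmium, against 12, 10 and 10 reads in controls (edgeR log2 fold change -2.34 with SE 0.73, adjusted p = 0.435). Its share of the host's reads was 0%, 0.476% and 0.676% with cadmium, below the 1.66%, 2.01% and 2.05% in controls. The difference in share was not tested.

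ZNF236 had the most circRNAs of any ZNF host, 8, and the third-highest sum, at 1597, 1412 and 1231 CPM in cadmium replicates 1 to 3, against 1884, 1872 and 1618 CPM in control replicates 1 to 3. Each cadmium library lay below each control, by an amount that did not pass the test (edgeR log2 fold change -0.34 with SE 0.13, adjusted p = 0.316). Of the 8 circRNAs, 5 begin at the same base, 76849526 on chromosome 18, at the start of exon 2, and end after exon 3, 4, 5, 6 or 9, so that they hold 3, 5, 6, 8 and 9 fingers. The shortest of them, hsa_circ_0004979 (exons 2 and 3), was the most abundant, with 887, 724 and 766 CPM with cadmium, against 1084, 1008 and 1011 CPM in controls. It too had every cadmium library below every control (edgeR log2 fold change -0.39 with SE 0.15, adjusted p = 0.522). Its share of the host's reads was 56.3% ± 5.49 with cadmium and 57.9% ± 4.31 in controls (± SD, 3 libraries each), with overlapping values. A minor circRNA of this host, hsa_circ_0047972, took 2.31%, 2.56% and 0% of the reads with cadmium, against 3.58%, 2.71% and 4.46% in controls, with no overlap. These are shares of 216, 195 and 193 host reads with cadmium and 419, 258 and 269 in controls, so they rest on few reads. This circRNA was picked after its values were seen, and its difference in share was not tested. The shares of the other ZNF236 circRNAs overlapped between the groups. Next in abundance, hsa_circ_0000857 stood at 363 ± 89.1 CPM with cadmium and 393 ± 117 CPM in controls (SD, n = 3 each).

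ZNF148, which encodes a factor that binds GC-rich promoters, gave 7 circRNAs, and its sum overlapped between the groups, at 1159.6 ± 83.6 CPM with cadmium and 1189 ± 165 CPM in controls (SD, n = 3 each). Of its circRNAs, 4 share the downstream end at base 125313308 of chromosome 3, and hsa_circ_0001333 (chr3:125313308-125331238, exons 2 to 4 of 9, which hold the start codon) took 66.6% ± 2.11 of the reads with cadmium and 70.5% ± 3.73 in controls. Shared ends were common: of 24 hosts with at least 2 circRNAs, 17 had circles that share the upstream end and 12 had circles that share the downstream end.

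**Figure D2:**
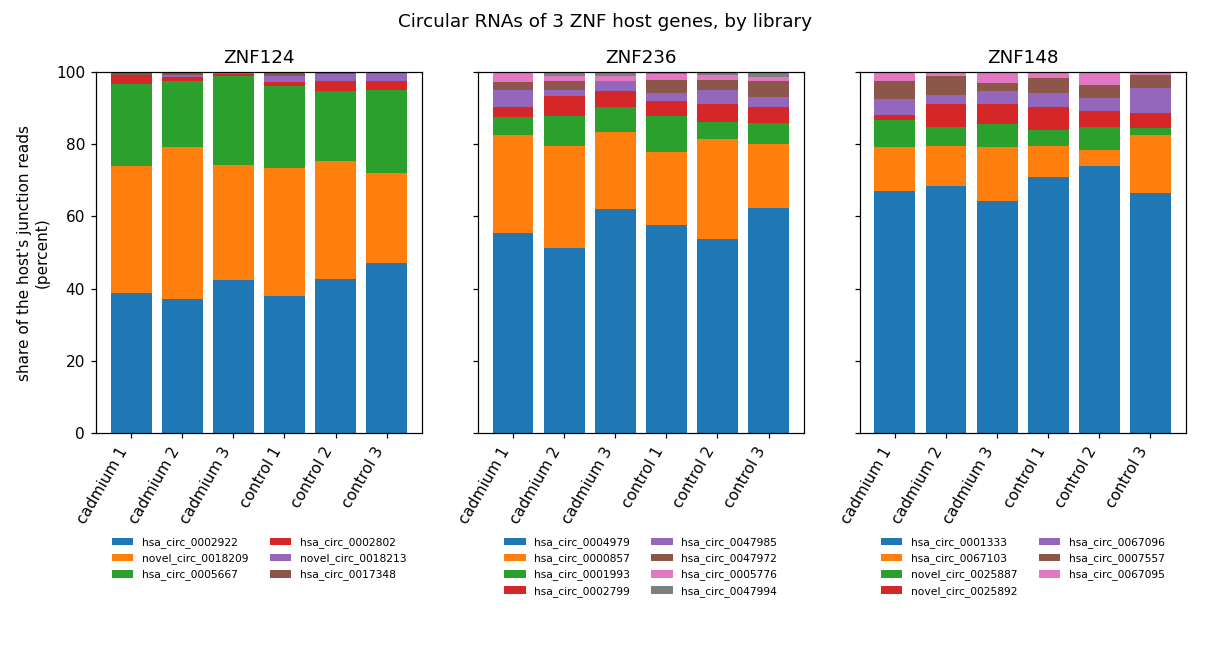
Stacked bars give the share of each circRNA in the junction reads of its host (y axis, percent) in each of the 6 libraries (x axis, cadmium replicates left of control replicates) for ZNF124, ZNF236 and ZNF148. The leading circRNA of ZNF236 takes between 51.3% and 62.5% in every library, and novel_circ_0018213 of ZNF124 is thinner in the cadmium bars than in the control bars.

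The remaining hosts among the 10 with the most reads showed no difference past the test. ZNF81, an X-linked KRAB gene with 1 circRNA (hsa_circ_0006364, chrX:47846105-47895940, exons 3 to 5 of 6), had 880.1, 840.1 and 912 CPM with cadmium, against 922, 849 and 1035 CPM in controls. ZNF652 stood at 697 ± 87.3 CPM with cadmium and 597 ± 67.9 CPM in controls (SD, n = 3 each), and ZNF133, a KRAB repressor gene, at 502 ± 57.5 CPM with cadmium and 498 ± 41.8 CPM in controls (SD, n = 3 each), with both groups overlapping. ZNF720, whose annotated protein is short and holds a KRAB pattern but no finger, had 658, 536 and 874 CPM with cadmium, against 576, 595 and 439 CPM in controls. Cadmium replicates 1 and 3 lay above all controls and replicate 2 below 2 of them (edgeR log2 fold change 0.36 with SE 0.19, adjusted p = 0.463). ZNF680, a KRAB gene, had 539.9, 550.4 and 542 CPM with cadmium, against 436, 414 and 493 CPM in controls, so that each cadmium library lay above each control, but the test did not call it (edgeR log2 fold change 0.28 with SE 0.17, adjusted p = 0.529). ZNF131, a BTB-domain zinc finger gene with 5 circRNAs, had 414, 289.7 and 549 CPM with cadmium, against 661, 675 and 415 CPM in controls. Its hsa_circ_0072380 was listed at 0 in control replicate 3, where the other control libraries implied 34.8 reads, so the sum in that library is uncertain (edgeR log2 fold change -0.48 with SE 0.23, adjusted p = 0.422).

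**Figure D3:**
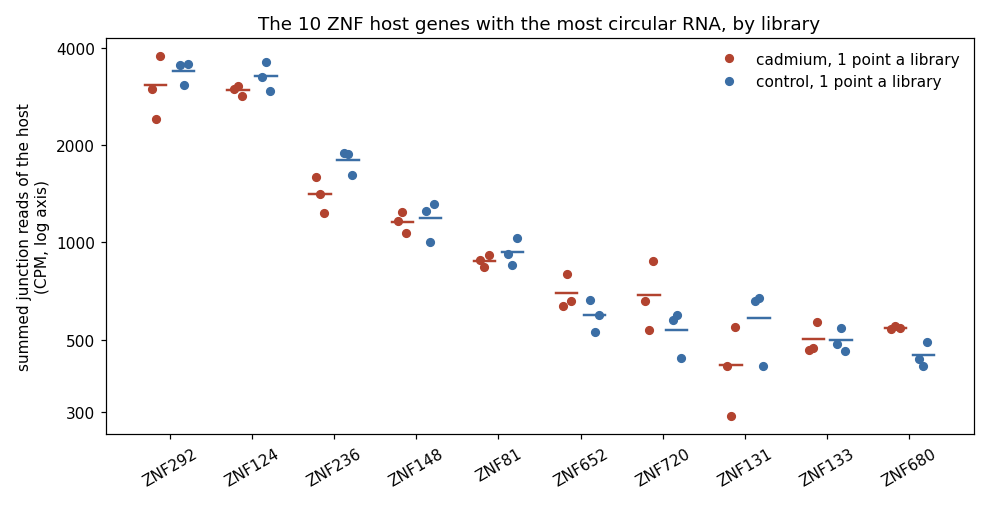
Points are the summed junction reads (y axis, CPM on a log axis) of the 10 ZNF host genes with the highest mean (x axis), 1 point a library, cadmium left of control, with bars at the group means. ZNF292 and ZNF124 stand highest in both groups. Of the 10 only ZNF236 (lower with cadmium) and ZNF680 (higher) have groups that do not overlap, where 19.2% of all tested hosts do not.

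In cadmium-exposed cells 0 of 95 tested ZNF circRNAs and 0 of 56 tested ZNF hosts passed an edgeR adjusted p under 0.05, where 0.0809% of all 6182 tested circRNAs and 0.233% of all 3008 tested hosts did (the circRNAs all lower, the hosts 0.0332% higher and 0.199% lower). DESeq2 and limma also called 0 at both levels. The smallest adjusted p by edgeR was 0.378 for a circRNA and 0.204 for a host. Without adjustment, at p under 0.05, 5 ZNF circRNAs (5.26%) were higher and 5 (5.26%) lower, against 4.32% and 3.88% of all tested circRNAs. For hosts 4 (7.14%) were higher and 5 (8.93%) lower, against 5.88% and 6.58% of all. These unadjusted counts moved with the libraries and the tool used. Without cadmium replicate 1, 3 of 106 ZNF circRNAs were higher and 9 lower, against 3.25% and 4.63% of all those tested in that fit. Without cadmium replicate 3 they were 3 and 8 of 101, against 3.09% and 4.86% of all, and without control replicate 2 they were 5 and 8 of 107, against 4.21% and 3.51% of all. Without control replicates 1 and 3 together, 9 of 107 were higher and 2 lower, against 5.45% and 2.08% of all. With no filter 7 of 139 were higher and 11 lower, against 4.49% and 5.8% of all, and by DESeq2 1 and 2 of 95, against 1.68% and 1.71% of all. For hosts the counts were 2 higher and 3 lower of 59 without control replicate 1, against 4.2% and 4.45% of all. They were 8 and 0 of 64 without control replicates 1 and 3 together, against 5.16% and 2.69% of all. The groups did not overlap for 13 of 95 circRNAs (13.7%), 5 higher and 8 lower, against 15.3% of all (7.52% higher and 7.78% lower). They did not overlap for 10 of 56 hosts (17.9%), 5 in each direction, against 19.2% of all (9.14% higher and 10.1% lower). These shares are near the background. In bulk RNA, fewer cells of a type and less RNA per cell cannot be told apart. The listing rule of the table may itself favour groups that do not overlap.

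The authors' deposited table holds an unadjusted p under 0.05 for 4 ZNF circRNAs higher with cadmium and 7 lower, of 139, against 2.39% and 2.75% of its 9853 circRNAs with a p. The smallest adjusted p of a ZNF circRNA in the authors' deposited table was 0.9647. In counts simulated from the means and depth of these libraries, the edgeR test called 17% of 100 circRNAs changed 2-fold and 69% of 100 changed 4-fold, and 47% and 81% of as many hosts. Most 2-fold changes of single circRNAs were thus missed in this simulation, whose changed circRNAs were drawn from all tested ones. Abundant circRNAs were not looked at apart, nor was depth separated from the spread between libraries.

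The log2 fold changes of ZNF circRNAs were on balance slightly below 0. Their median was -0.11, against 0.01 over all tested circRNAs, and it was -0.02 without control replicates 1 and 3. In all, 57 of 95 (60%) lay below 0, against 49.3% of all. Per host the median was -0.06, against 0.00 over all tested hosts, and it was 0.01 by limma on log2(TPM + 1). It was 0.07 without control replicates 1 and 3. The median was -0.11 for 44 tested circRNAs of KRAB hosts and -0.11 for 51 of the other hosts. The median was -0.26 for 23 tested circRNAs that hold a C2H2 finger, of which 7 lay above 0 and 16 below. At edgeR p under 0.05 without adjustment none of these was higher and 3 were lower, against 4.32% and 3.88% of all tested circRNAs. For 19 that hold the KRAB exon the median was -0.09, with 0 in either direction at that threshold. Several of these circles share a host, so they are not independent, and the difference between the subsets was not tested.

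**Figure D4:**
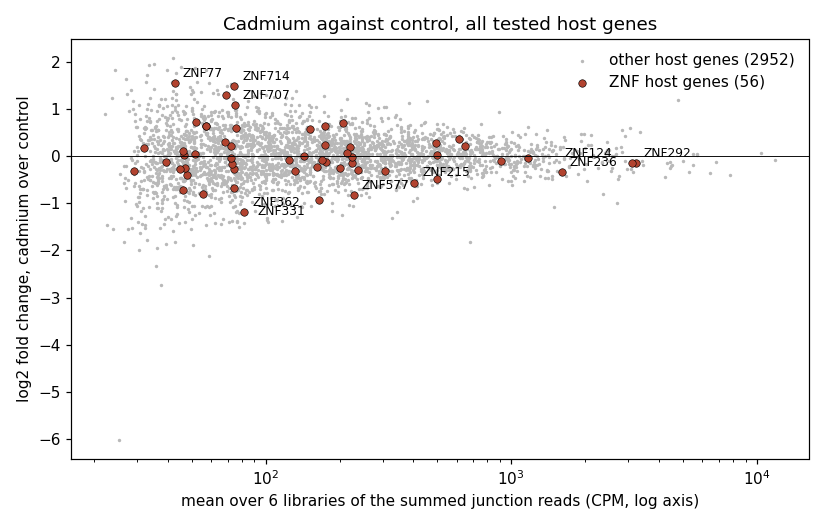
Each point is 1 tested host gene, with its mean level over the 6 libraries on the x axis (CPM, log axis) and the log2 fold change of cadmium over control on the y axis. The 56 ZNF hosts (red) lie among the 2952 others (grey), between -1.19 and 1.56, with the largest changes at low levels.

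As a share of all junction reads, ZNF circRNAs took 1.87%, 1.80% and 1.85% in cadmium replicates 1 to 3, against 1.98%, 1.90% and 1.91% in control replicates 1 to 3. The means were 1.84% ± 0.0369 and 1.93% ± 0.0434 (SD, n = 3 each), a difference of -0.094 percentage points (-0.066 without control replicates 1 and 3). Each cadmium library lay below each control, and no p is given because the members were chosen with earlier results known. Hosts with a KRAB pattern took 0.869% ± 0.0228 with cadmium and 0.896% ± 0.0245 in controls, and those without one 0.968% ± 0.0323 and 1.04% ± 0.0637, and in both sets the groups overlapped. Without ZNF292 and ZNF124 the share was 1.23% ± 0.0275 with cadmium and 1.27% ± 0.0406 in controls, and the groups overlapped. Detected were 130, 125 and 129 ZNF circRNAs with cadmium and 134, 127 and 131 in controls.

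Among hosts higher with cadmium but short of the threshold, ZNF714 came first. Its 1 circRNA, novel_circ_0014906 (chr19:21098185-21098910, exons 3 to 4 of 5), had 14, 16 and 18 reads with cadmium, against 11, 3 and 7 reads in controls. That is 104, 116 and 115 CPM with cadmium, against 49.5, 21.8 and 42.1 CPM in controls, with no overlap (edgeR log2 fold change 1.49 with SE 0.41, adjusted p = 0.378). Its junction is the near copy of the junction of ZNF91 novel_circ_0014936. The other ZNF91 circRNA, the intronic-class novel_circ_0014939 (chr19:23374638-23376330), had 259, 116 and 140.4 CPM with cadmium, against 112, 72.6 and 66.2 CPM in controls, where cadmium replicate 1 was the highest (edgeR log2 fold change 0.99 with SE 0.37, adjusted p = 0.488). ZNF91 is a primate KRAB gene known for repressing SVA retrotransposons, and its novel_circ_0014936 stood at 39.6 ± 3.42 CPM with cadmium and 52.6 ± 32.5 CPM in controls (SD, n = 3 each).

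ZNF707, a KRAB gene on chromosome 8, gave hsa_circ_0002535, with 17, 12 and 15 reads with cadmium, against 9, 5 and 11 reads in controls (edgeR log2 fold change 1.09 with SE 0.41, adjusted p = 0.467). Each cadmium library lay above each control in CPM. ZNF77 gave novel_circ_0014964 (exons 2 and 3 of 4), with 6, 7 and 16 reads with cadmium, against 8, 0 and 4 reads in controls, and cadmium replicate 3 held more than the other 2 cadmium libraries together (edgeR log2 fold change 1.56 with SE 0.69, adjusted p = 0.557). ZNF398, whose protein interacts with the oestrogen receptor, gave the single-exon hsa_circ_0004351, with 199.7, 188 and 383 CPM with cadmium, against 157, 116 and 199 CPM in controls. Here too cadmium replicate 3 stood alone, and the other 2 lay close to the highest control (edgeR log2 fold change 0.71 with SE 0.32, adjusted p = 0.572). The finger-rich ZNF407 circle hsa_circ_0047958 had 7, 11 and 7 reads with cadmium, against 0, 8 and 0 reads in controls, so that the difference rests on the zeros in 2 control libraries (edgeR log2 fold change 1.79 with SE 0.98, adjusted p = 0.669).

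Among hosts lower with cadmium but short of the threshold, ZNF577, a KRAB gene on chromosome 19, had the smallest p. Summed over 4 circRNAs it had 148, 203 and 147 CPM with cadmium, against 310.2, 225 and 337 CPM in controls, with no overlap (edgeR log2 fold change -0.83 with SE 0.26, adjusted p = 0.212). Its hsa_circ_0008822 (chr19:51860904-51886912) had 6, 6 and 4 reads with cadmium, against 20, 12 and 22 reads in controls, and its share of the host's reads was 22.9% ± 6.44 with cadmium and 35.7% ± 5.79 in controls, with overlapping values. A pair of imprinted genes followed. ZNF331 on chromosome 19 had 133, 86.9 and 121 CPM with cadmium, against 184, 181 and 283 CPM in controls over 4 circRNAs, all with the same upstream end (edgeR log2 fold change -0.92 with SE 0.30, adjusted p = 0.231). ZNF215 on chromosome 11 had 340.2, 275 and 370.1 CPM with cadmium, against 598, 399 and 439 CPM in controls over 2 circRNAs (edgeR log2 fold change -0.56 with SE 0.21, adjusted p = 0.287). In both sums, each cadmium library lay below each control. The more abundant ZNF215 circRNA, hsa_circ_0008338, had 266, 225 and 370 CPM with cadmium, against 499, 341 and 355 CPM in controls. Its groups overlapped, so the separation of the ZNF215 sum was not seen in that circRNA alone.

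ZNF362 had 1 circRNA, hsa_circ_0009027 (chr1:33294937-33295305, exons 7 to 8 of 9, with 1 of 5 fingers), with 7, 11 and 3 reads with cadmium, against 22, 16 and 21 reads in controls. The groups did not overlap, and cadmium replicate 3 was the lowest (edgeR log2 fold change -1.19 with SE 0.45, adjusted p = 0.486). From ZNF451, which encodes a SUMO ligase, hsa_circ_0007587 (exons 4 to 9 of 15) had 2, 9 and 4 reads with cadmium, against 28, 10 and 10 reads in controls, and cadmium replicate 2 lay within the control range in CPM (edgeR log2 fold change -1.32 with SE 0.53, adjusted p = 0.522). From ZNF514, novel_circ_0025394 had 5, 7 and 9 reads with cadmium, against 19, 12 and 15 reads in controls, with no overlap in CPM (edgeR log2 fold change -0.84 with SE 0.40, adjusted p = 0.61).

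**Figure D5:**
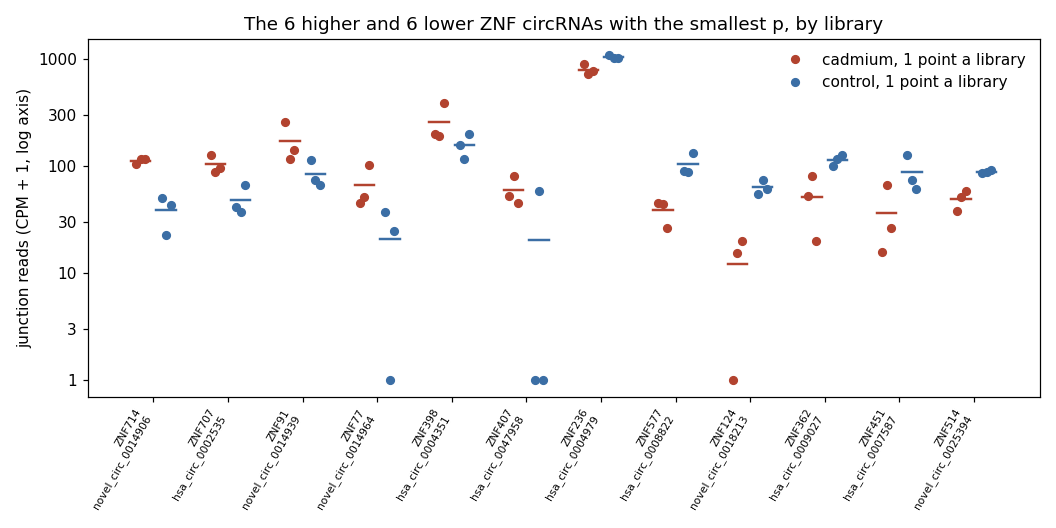
Points are junction reads (y axis, CPM + 1 on a log axis) of the 6 higher (left) and 6 lower (right) ZNF circRNAs with the smallest unadjusted p (x axis), 1 point a library, cadmium left of control, with bars at the group means. Of these 12, 4 of the higher and 5 of the lower have groups that do not overlap, and 0 passed the adjusted threshold. They were picked for small p, which itself favours groups that do not overlap. Over all tested circRNAs, 7.52% were higher and 7.78% lower without overlap.

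A few ZNF circRNAs were listed in 1 group only. The ZNF638 circle novel_circ_0025155 (chr2:71355719-71370005) had 7, 6 and 3 reads with cadmium, against 0, 0 and 0 reads in controls, and the ZNF606 circle hsa_circ_0007073 2, 4 and 3 reads with cadmium, against 0, 0 and 0 reads in controls. ZNF519 had novel_circ_0013633, with 0, 0 and 0 reads with cadmium, against 12, 4 and 2 reads in controls. Of 139 ZNF circRNAs, 2 were at 0 in all controls and 1 was at 0 with cadmium. Of all 9857 circRNAs, 93 and 212 were. None of these 3 ZNF circRNAs had enough reads for the filtered fit, and the listing rule itself selects circles present in all 3 libraries of a group. All 3 have an unadjusted p under 0.05 in the authors' deposited table, where the smallest adjusted p of a ZNF circRNA was 0.9647. ZNF638, whose protein recruits the HUSH silencing complex to retroviral DNA, stood at 181 ± 35.7 CPM with cadmium and 122 ± 22.2 CPM in controls (SD, n = 3 each) over its 5 circRNAs, each cadmium library above each control (edgeR log2 fold change 0.57 with SE 0.30, adjusted p = 0.467). This sum includes novel_circ_0025155, which held 25.0%, 22.2% and 13.6% of the host's reads in cadmium replicates 1 to 3 and 0% in each control. The host was not fitted without that circRNA, so its separation is not a second, separate result. In all, 44 circRNAs and 24 hosts were not tested, with 0 to 17 reads per library and circRNA, and these circRNAs held 0.0877% to 0.102% of junction reads with cadmium and 0.0949% to 0.103% in controls.

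The reads that lie at a ZNF circle's locus but do not cross its junction give a second measure. The circRNAs used had junction reads, and a listed value for the other reads, in every library. Over 94 such ZNF circRNAs, the weighted junction share (2 times the junction reads over that plus the other reads) was 64.4%, 61.3% and 61.2% in cadmium replicates 1 to 3 and 70.1%, 58.0% and 74.2% in control replicates 1 to 3. Over 5809 circRNAs of other hosts it was 29.4%, 31.2% and 29.8% with cadmium and 45.6%, 28.7% and 48.4% in controls. The share was higher at ZNF loci than at the others in all 6 libraries, and control replicates 1 and 3 were the highest in both sets. With these 2 left out, the 1 remaining control lay below all cadmium libraries in both sets. The sources used here leave out how the other reads were counted, and their part in the group differences was not tested.

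Genes that work with KRAB zinc fingers were described from a list of 32, of which 22 had circRNAs and 18 were tested. None passed the test (edgeR adjusted p under 0.05), 9 lay above 0 and 9 below, and the median log2 fold change was -0.02, against 0.00 over all hosts. Without adjustment 1 was higher and 1 lower at p under 0.05, against 5.88% and 6.58% of all tested hosts. UHRF1, which brings the maintenance DNA methyltransferase to replicated DNA, had 118, 109 and 281 CPM with cadmium, against 71.9, 94.3 and 54.1 CPM in controls (edgeR log2 fold change 1.22 with SE 0.41, adjusted p = 0.236). Only cadmium replicate 3 stood well above the rest. KDM1A, a histone demethylase, had 1595 ± 88.7 CPM with cadmium and 1836 ± 178 CPM in controls (SD, n = 3 each) (edgeR log2 fold change -0.21 with SE 0.13, adjusted p = 0.541).

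Hosts with the symbols of other zinc finger families (ZBTB, PRDM, ZKSCAN and related ones) numbered 20, of which 16 were tested. They were taken by symbol, which includes ZBTB8OS, a gene that is named for its place opposite ZBTB8 and encodes no zinc finger protein. None passed the test. Without adjustment 3 were higher and 0 lower at p under 0.05, against 5.88% and 6.58% of all tested hosts, and the median log2 fold change was 0.09. Without ZBTB8OS, left out after its values were seen, the counts were also 3 and 0, of 15, and the median was 0.08. ZBTB11, a BTB zinc finger gene, had 318, 319 and 345 CPM with cadmium, against 184, 203 and 187 CPM in controls, with no overlap (edgeR log2 fold change 0.78 with SE 0.21, adjusted p = 0.204). ZBTB46, known as a dendritic cell factor, stood at 681 ± 91.7 CPM with cadmium and 497 ± 96.4 CPM in controls (SD, n = 3 each) (edgeR log2 fold change 0.44 with SE 0.18, adjusted p = 0.339), and ZBTB49 at 69.5 ± 16.5 CPM with cadmium and 29.4 ± 25 CPM in controls (SD, n = 3 each) (edgeR log2 fold change 1.32 with SE 0.61, adjusted p = 0.391). The difference between these families and the ZNF hosts was not tested.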

How the data were processed

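The deposited counts give, as whole numbers, the reads that cross each back-splice junction in 6 libraries (3 cadmium, 3 control). Their deposited TPM values are these counts scaled to the library total with no length term, used in 1 alternative. Their deposited comparison table gives log2 fold changes and p-values. Their annotation table gives positions, classes, host genes, spliced lengths and non-junction reads. Per the submitters' processing notes, the tools were Bowtie, Bowtie2 2.2.8 and DESeq 1.10.1 and the build hg19, without their roles. For the circRNA caller, the sources used here give no name. The positions follow GRCh38: exon bounds of GENCODE 29 match 98.0% of exonic starts and 98.1% of ends, and they are given in that build, counted from 1.

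The members and lists were chosen with earlier results of these data known. Counts were tested over all circRNAs, and summed per host gene, by edgeR 4.0.16 (R 4.3.3) with its quasi-likelihood test, TMM factors and robust fitting, after filterByExpr with minimum count 5 and minimum total 15. Calls needed an adjusted p (Benjamini-Hochberg, over the whole table) under 0.05. The SE was worked back from the F statistic. The alternatives were other size factors, other filters, DESeq2 1.42.0, limma 3.58.1 on log2(TPM + 1), a block for the replicate number, and leaving out libraries. No library was a copy of another by a chi-square test of counts within groups (1.59 to 2.49 per degree of freedom). The fit was tested on simulated data. With no molecular identifiers, reads are not independent molecules.

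Exon numbers, start codons and fingers come from GENCODE 29 transcripts with both circle ends on their exon bounds. A C2H2 finger is a cysteine, 2 residues, a cysteine, 12 residues, a histidine, 3 to 5 residues and a histidine in the translated coding sequence. The KRAB domain was searched with 1 pattern of its first box, which can miss diverged domains. Named hosts are the 10 most abundant, the 6 higher and 6 lower with the smallest p and the 5 with the most circRNAs. Named circRNAs are the 10 most abundant, the 6 higher and 6 lower with the smallest p and those at 0 in 1 group. For the KRAB partners and other families the 3 with the smallest p are named, apart from 1 partner that is not reported here. Other circRNAs given as examples of structure, and hsa_circ_0047972 of ZNF236, were chosen after their values were seen.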

Additional observations from a re-analysis of the deposited data

How the results depend on the processing

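The count of ZNF circRNAs and of ZNF hosts past an adjusted p under 0.05 was 0 under every alternative run: other size factors, library totals alone, no filter, a stricter filter, DESeq2, limma, the replicate number as a block, each library left out, and control replicates 1 and 3 left out together (which leaves 1 control library, whose spread is taken from the cadmium ones). The same-numbered libraries of the 2 groups do not deviate together (correlations 0.000205, 0.0216 and 0.0517), so the numbers were not taken to pair them. With the replicate block 4 circRNAs and 6 hosts of the whole table were called, in place of 5 and 7. Over the fits without 1 library, the whole table gave 0 to 13 called circRNAs (0 without control replicate 1 and 13 without control replicate 2) and 3 to 13 called hosts (3 without cadmium replicate 2 or control replicate 1, 13 without cadmium replicate 3). Without control replicates 1 and 3 it gave 3 circRNAs and 3 hosts, and limma called 4 hosts. The cause was not tested. The difference in ZNF share ran from -0.108 to -0.066 percentage points and kept its direction in all 10 alternatives, 1 of them, hosts with 2 or more C2H2 patterns in GENCODE, chosen after seeing the data. In the alternatives that only left out libraries the direction could not change, since each cadmium library lay below each control. The planned version with RefSeq proteins was not run. Of 569 alternative values of the 41 named circRNAs and hosts, 18 changed sign, all in log2 fold changes near 0. Over the fits without 1 library, the log2 fold change ran from -0.10 to 0.043 for the ZNF133 circRNA hsa_circ_0006099, from -0.068 to 0.069 for the ZNF133 host, from -0.13 to 0.18 for ZNF124 novel_circ_0018209 and from -0.16 to 0.033 for the ZNF148 host. Without control replicates 1 and 3 these were -0.12, -0.12, -0.13 and 0.21, the ZNF148 circRNA hsa_circ_0001333 became 0.055, the ZNF81 circRNA 0.041 and the ZNF81 host 0.047. With no filter the ZNF133 circRNA became -0.015. The smallest edgeR, DESeq2 or limma adjusted p of a named circRNA or host under any alternative was 0.119. Single ZNF circRNAs had a median of 7 reads per library, and the part of depth in the lack of calls was not tested. In the simulated counts 1 of 87 calls among circRNAs and 5 of 133 among hosts were false.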

Other observations

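At 4 places a ZNF circRNA was listed at 0 in a library where the rest of its group implied at least 10 reads. These were hsa_circ_0008543 of ZNF736 in cadmium replicate 3 (13.8 reads implied), hsa_circ_0072380 of ZNF131 in control replicate 3 (34.8), hsa_circ_0082096 of ZNF800 in control replicate 3 (10.8) and hsa_circ_0007480 of ZNF160 in control replicate 2 (10.3). A listed 0 is therefore not always absence.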
